A study of Mus musculus with 19 samples.

Results

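Hmga1, Hmga2, Igf2bp1, Igf2bp2, Igf2bp3 and Lin28b are transcripts of the embryo that reappear in tumours and are known as targets of the microRNA let-7. They were named by symbol and read from a table of normalised mRNA expression in mouse embryonic stem cells, so that 6 of its 21685 genes are described here, and all 6 passed the filter on low values. The cells differed in Trim71, which encodes a ubiquitin ligase of the stem cell that is itself repressed by let-7, and in Lin28a, whose protein keeps let-7 from maturing. After loss of Lin28a, Hmga2 fell to about 0.45 times its level, Igf2bp2 and Igf2bp3 rose by 39.6% to 59.7%, and the other members moved by less. After loss of Trim71 none of the 6 was called.

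In the names of the 4 genotypes Trim71 comes before Lin28a. WT-WT cells (Trimfl/fl - Lin28afl/fl) had 4 libraries, KO-WT cells (Trim-/- - Lin28afl/fl) had 4 that could be used, WT-KO cells (Trimfl/fl - Lin28a-/-) had 5 and KO-KO cells (Trim-/- - Lin28a-/-) had 5. All cells were male C57BL/6 embryonic stem cells in medium with FCS and LIF, which keeps them pluripotent, and all had been sorted on magnetic beads by SSEA-1, an antigen on the surface of stem cells. Trim71 was deleted in floxed cells by 4-OHT (500 nM, 2 days), and the cells were then kept in culture for 7 days or more. "WT" therefore means a floxed allele. The same treatment text stands with every library, undeleted ones included, and it does not give a separate treatment for them. Each Lin28a state was carried by its own clones: clones 1 and E3 were intact and clones 1-4 and C1 were null, so the Lin28a genotype and the clone cannot be told apart. Libraries of a genotype carry different day labels and come from these few clones, and nothing says that they are separate cultures, so p-values measure the spread between these libraries, which may be technical.

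Precursors of let-7 are bound by LIN28A and LIN28B, which recruit a terminal uridylyl transferase and send them to degradation. Mature let-7 represses mRNAs that carry a complement of its seed, bases 2 to 8, in their 3′ UTR. HMGA1 and HMGA2 are small architectural proteins whose AT-hooks hold the minor groove of AT-rich DNA. IGF2BP1, IGF2BP2 and IGF2BP3 bind mRNAs through KH and RRM domains and steer their stability, transport and translation. LIN28B is the paralogue of LIN28A. Mature let-7 itself was not among the values used here.

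The seed shared by the family is what links these genes. Of the mature mouse miRNAs looked up in RefSeq (GRCm38.p6), 10 carry the seed GAGGUAG, and 4 of them are shown with that seed in capitals, because they differ from each other outside it:
let-7a-5p: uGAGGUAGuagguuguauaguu
let-7b-5p: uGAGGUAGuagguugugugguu
let-7g-5p: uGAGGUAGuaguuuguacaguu
miR-98-5p: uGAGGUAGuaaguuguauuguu

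The 3′ UTR of each member was searched on the transcript strand for CTACCTCA (an 8-base match), for CTACCTC without the final A, and for TACCTCA without the leading C, counting each place once. The UTRs are those of 1 GENCODE M21 transcript a gene on GRCm38. Hmga2 held 7 matches in 2977 bases, Igf2bp1 held 5 in 6337 bases and Lin28b held 5 in 4445 bases. Igf2bp2 held 2 in 1784 bases, Igf2bp3 held 1 in 2119 bases and Hmga1 held 1 in 1178 bases. Over the 12459 tested genes with an annotated 3′ UTR, 15.6% held at least 1 match, 3.44% held an 8-base match, and 16 genes held at least 5. Among UTRs within 20% of its length, 0.0729% held at least as many matches as Hmga2, 0.502% as many as Lin28b, 1.2% as many as Igf2bp1, 3.02% as many as Igf2bp2, 13.2% as many as Hmga1 and 23.6% as many as Igf2bp3. A match is a run of letters and not a measured site.

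The stretches of Hmga2 and 1 match of each other member are shown with the matching letters in capitals, so that they can be set beside the changes described further on. Hmga2 lies on chromosome 10, minus strand, from 120361275 to 120476469, and its 7 matches in order from the stop codon read:
Hmga2, chr10:120364224-120364251: ggggcgccgacattcaatttCTACCTCA
Hmga2, chr10:120363140-120363169: ccgtgaaagaccgcagtaccactTACCTCA
Hmga2, chr10:120362988-120363017: gcaataatccccactcctcaataCTACCTC
Hmga2, chr10:120362599-120362628: tcaaatataagtctccaagtttgTACCTCA
Hmga2, chr10:120362550-120362579: tggacttcctgatttgcaaggaaCTACCTC
Hmga2, chr10:120361692-120361721: tgttgtacaatcaaaacacactaCTACCTC
Hmga2, chr10:120361672-120361701: ctactacctcttaagtcccagtaTACCTCA

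Hmga1 lies on chromosome 17, plus strand, from 27556604 to 27563669. Igf2bp1 lies on chromosome 11 from 95957163 to 96005940, Igf2bp2 on chromosome 16 from 22059009 to 22163299, Igf2bp3 on chromosome 6 from 49085223 to 49214957 and Lin28b on chromosome 10 from 45376620 to 45470201, all on the minus strand. Hmga1 is the member with no 8-base match, and its 7-base match is given; for the others the 8-base match nearest the stop codon is given:
Hmga1, chr17:27563269-27563298: ccatcttctcctctgttcacaaaCTACCTC
Igf2bp1, chr11:95961778-95961807: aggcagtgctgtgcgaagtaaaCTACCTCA
Igf2bp2, chr16:22059473-22059502: gagaaaaacacacaaataaaagCTACCTCA
Igf2bp3, chr6:49086787-49086816: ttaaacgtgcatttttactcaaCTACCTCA
Lin28b, chr10:45381022-45381051: tcccttcacccgggcgggaagtCTACCTCA

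**Figure D1:**
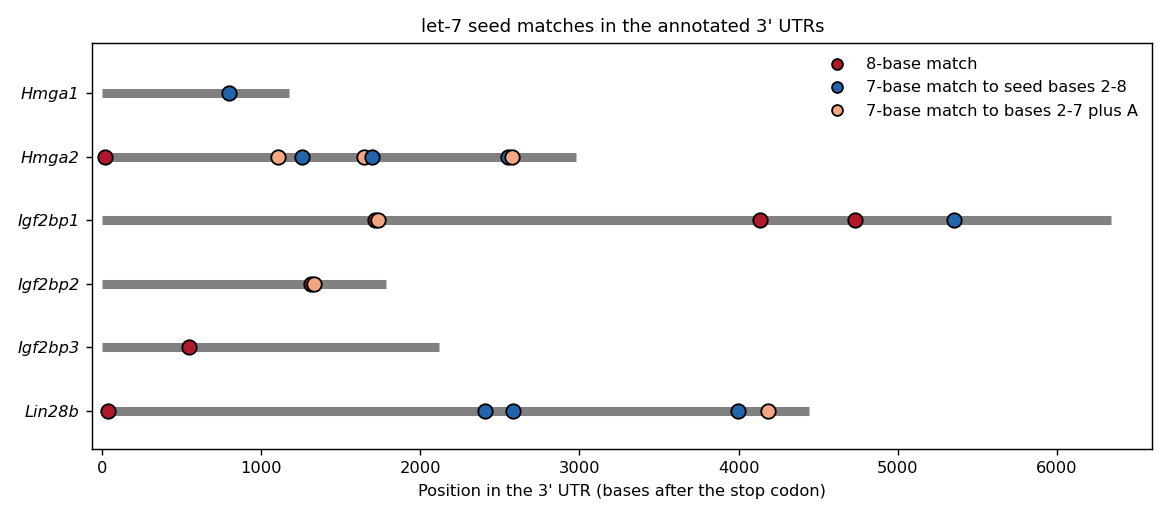
Position of each let-7 seed match along the annotated 3′ UTR of the 6 genes, in bases after the stop codon; grey bars show the length of the UTR and the colour of a point gives the kind of match. Hmga2 carries 7 matches in 2977 bases, and Igf2bp3 and Hmga1 carry 1 each.

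The values are deposited normalised expression on a log2 scale, and the depth of the libraries is unknown. A KO-WT replicate 5 was left out, because it differed by no more than 1.5e-08 from the average over KO-WT replicates 1 to 4. Differences between days had been removed from the values before deposit, so the tests (limma, with 1 term a genotype and 1 a day, 18 libraries) count the days as used. SDs, ranges and overlaps of groups are taken from these values and do not count the days. They can therefore look tighter than the libraries were. Each day held only clones 1 and 1-4 or only clones E3 and C1. Any mean difference between these clone sets was therefore removed with the days. Calls were made at a Benjamini-Hochberg adjusted p-value under 0.05 over the 14988 tested genes, and errors of differences are standard errors. The targeted transcripts went with their labels: Trim71 averaged 10.21 and 10.65 where intact (WT-WT, WT-KO) against 8.89 and 9.28 where deleted (KO-WT, KO-KO), and Lin28a averaged 10.13 and 9.84 against 8.47 and 8.28. Stem cell markers were present in every library.

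Levels can be compared between genes only per length. Per kilobase of transcript, on the linear scale after undoing the logarithm, Hmga1 stood highest in WT-WT cells at 1655 ± 146 units (SD, n = 4), followed by Igf2bp1 at 523 ± 26.0. Igf2bp2 followed at 200.3 ± 1.23 units per kilobase, and Igf2bp3 (53.0 ± 1.81), Hmga2 (45.3 ± 3.83) and Lin28b (43.3 ± 4.10) formed the low end. Hmga2 and Lin28b did not differ beyond their spread in WT-WT. In WT-KO cells the order was Hmga1 (2030 ± 121, n = 5), Igf2bp1 (535 ± 34.6), Igf2bp2 (320.7 ± 27.3), Igf2bp3 (74.1 ± 5.68), Lin28b (48.5 ± 4.73) and Hmga2 (20.2 ± 0.541), so Hmga2 moved to the last place.

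**Figure D2:**
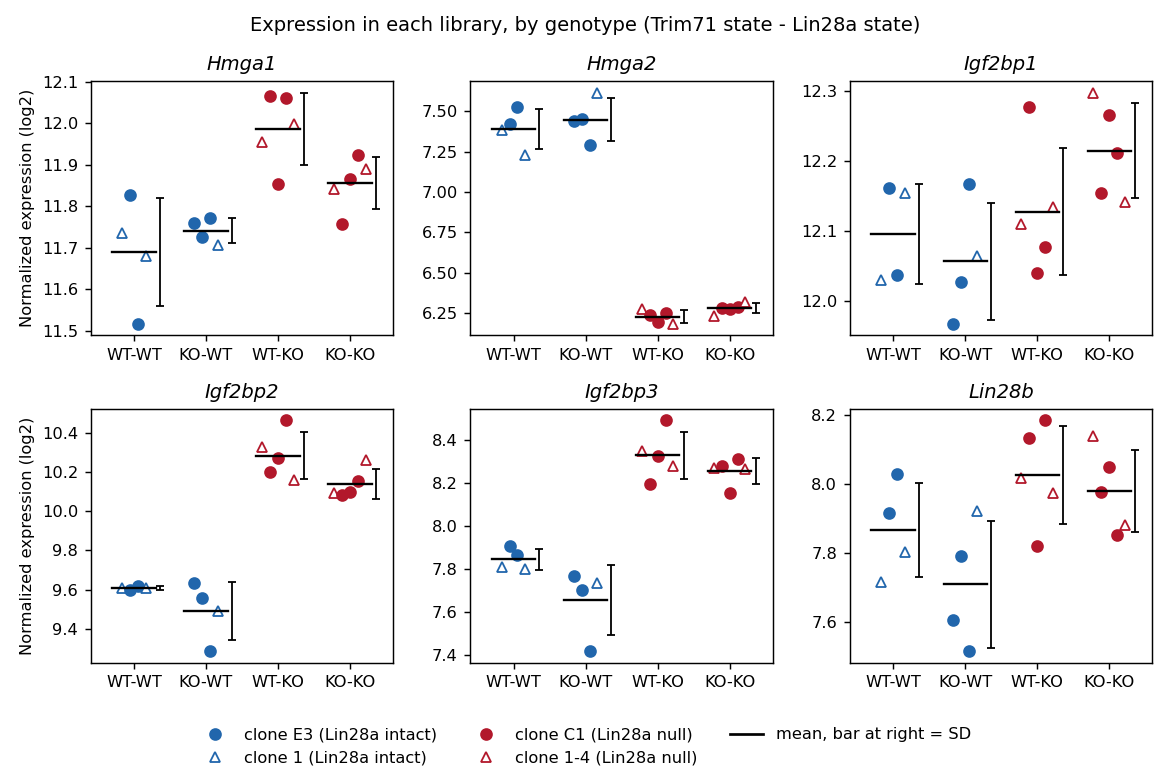
Normalised expression (log2) of the 6 genes in each of the 18 libraries, by genotype; filled circles are clones E3 and C1, open triangles clones 1 and 1-4, blue is Lin28a intact, red is Lin28a null, and the line and bar give the mean and SD. The Lin28a-null libraries lie below all Lin28a-intact ones for Hmga2 and above them for Igf2bp2 and Igf2bp3, while the groups overlap for Hmga1, Igf2bp1 and Lin28b. The share of all tested genes that separate by Lin28a state was not counted.

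Hmga2, the chromatin protein of the embryo, was the member that fell. Its log2 expression was 7.39, 7.42, 7.52 and 7.23 in the WT-WT libraries (replicates 1 to 4) and 7.44, 7.45, 7.29 and 7.62 in the KO-WT libraries. It was 6.28, 6.24, 6.19, 6.25 and 6.19 in WT-KO and 6.23, 6.28, 6.28, 6.29 and 6.32 in KO-KO. The 10 Lin28a-null libraries, at 6.19 to 6.32, all lay below the 8 Lin28a-intact ones, at 7.23 to 7.62. How many of all tested genes separate in this way was not counted. A lack of overlap, here or for the members below, therefore sets no member apart. By mean the order was KO-WT (7.45 ± 0.134 SD), WT-WT (7.39 ± 0.124), KO-KO (6.28 ± 0.0304) and WT-KO (6.23 ± 0.0386), and the neighbours that share a Lin28a state overlapped.

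Lin28a loss changed Hmga2 by -1.16 ± 0.0741 (SE) log2 units with Trim71 intact (limma adjusted p 7.29e-09), which is 0.447 times the WT-WT level (95% interval 0.401 to 0.498). Without Trim71 the change was -1.17 ± 0.0741 (limma adjusted p 6.9e-09), or 0.445 times. Hmga2 was lower in 4 of 4 same-day pairs of libraries under each of these contrasts, with differences from -1.296 to -1.003. Among all tested genes its change ranked in the lowest 0.988% with Trim71 intact and in the lowest 0.881% without it. An exon of Hmga2 overlaps 1700006J14Rik by 140 bases. The library kit does not mark the strand, so reads there cannot be assigned to either gene. 1700006J14Rik stood far lower, at 3.16 to 4.18, and fell by 0.61 (adjusted p 0.000398) and 0.46 (adjusted p 0.00337).

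Markers of primitive endoderm, trophectoderm and fibroblasts were lower in the same libraries, while those of stem cells and several of neural cells were higher. Over all tested genes, 20.3% were called higher and 22% lower with Trim71 intact, and 20.8% and 22% without. The summed level of 15 primitive endoderm markers was 13.93 to 14.26 in Lin28a-intact and 13.00 to 13.41 in Lin28a-null libraries (log2), and 13 of 13 tested were called lower with Trim71 intact and 11 of 13 without. That of 14 trophectoderm markers was 12.32 to 12.71 against 10.19 to 10.62, with 9 of 11 called lower under each contrast, and that of 8 fibroblast markers was 8.61 to 9.21 against 7.27 to 7.65, with 4 of 7 called lower and 1 higher. Among the abundant members of these lists, Krt8 averaged 10.96 in WT-WT and 6.74 in WT-KO and Col4a1 10.53 and 7.84, while Cdx2, Elf5 and Tfap2a of trophectoderm, Foxa2 of endoderm and Pdgfrb of fibroblasts were below the filter level in every library. The summed level of 15 stem cell markers was 15.46 to 15.66 in Lin28a-intact and 15.78 to 15.97 in Lin28a-null libraries, with 12 of 14 tested called higher and 0 lower with Trim71 intact, and 8 higher and 1 lower without. Nanog rose by 0.86 and 0.97. Of 8 tested neural markers 4 were called higher and 2 lower under each contrast, and Tubb3 rose by 0.90 and 0.99. Of 8 tested markers of primed pluripotency, 4 were called lower and 1 higher under each contrast. Otx2 changed by -0.90 and -1.09, while Zic2 changed by 0.64 and 0.72. The summed level of the 10 primed markers overlapped, at 11.41 to 11.77 in Lin28a-intact and 11.13 to 11.53 in Lin28a-null libraries. The part of any such cells in the Hmga2 result, or in those of the other members, was not tested. In bulk RNA, fewer cells that express a gene and less RNA per cell cannot be told apart.

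The genes whose pattern was most like that of Hmga2 over the 18 libraries were Sparc and Podxl (Pearson r 0.988 each) and Dab2 (0.987), out of 10822 candidates. Sparc encodes a matrix glycoprotein and Dab2 an endocytic adaptor, and both are on the primitive endoderm list; Podxl encodes a sialomucin of the cell surface. Since the libraries fall into 2 clusters by Lin28a state, such an r mostly states the size of that split. No p is given, because the libraries share it.

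Hmga1, the other AT-hook protein and the most abundant member per kilobase, went the opposite way. Its log2 expression was 11.73, 11.83, 11.52 and 11.68 in WT-WT and 11.76, 11.73, 11.77 and 11.71 in KO-WT. It was 11.95, 12.07, 11.85, 12.06 and 12.00 in WT-KO and 11.84, 11.76, 11.86, 11.92 and 11.89 in KO-KO. The 5 WT-KO libraries lay above the 4 WT-WT ones, and 9 of the 10 Lin28a-null libraries lay above every Lin28a-intact one. By mean the order was WT-KO (11.99 ± 0.0873 SD), KO-KO (11.86 ± 0.0630), KO-WT (11.74 ± 0.0300) and WT-WT (11.69 ± 0.130), and each neighbouring pair overlapped.

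Hmga1 rose by 0.30 ± 0.0615 (SE) after Lin28a loss with Trim71 intact, to 1.23 times (limma adjusted p 0.00111), and every one of the 4 pairs of libraries from a shared day showed the rise. Restricting the fit to clones E3 and C1 left 0.32, which was not called (adjusted p 0.0584). Without Trim71 the difference was 0.11 ± 0.0615 (adjusted p 0.145, 95% interval -0.0157 to 0.245, higher in 3 of 4 pairs) and was not called; it was 0.24 once the dependence on transcript GC content and length had been taken out of every library (adjusted p 0.00263). The difference between these contrasts is the interaction, -0.18 ± 0.0875 (limma adjusted p 0.338), which was not called. Hmga1b, listed as a separate gene, shares 92.7% of its 31-base words with Hmga1 transcripts. Of the Hmga1 words, 62.1% are found in Hmga1b. Reads of the pair can therefore be split between them, and the value of Hmga1 is uncertain to that extent. Hmga1b stood much lower, at 5.39 to 5.90, and its difference after Lin28a loss with Trim71 intact was 0.25 (adjusted p 0.0185). A further 102 bases of Hmga1 overlap AI413582, which was at 5.83 to 6.40 and was not called in either Lin28a contrast (adjusted p 0.254 and 0.0584).

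The RNA-binding proteins Igf2bp2 and Igf2bp3 rose together. Igf2bp2 had log2 values of 9.61, 9.60, 9.62 and 9.61 in WT-WT and of 9.63, 9.56, 9.29 and 9.49 in KO-WT. In WT-KO it had 10.33, 10.20, 10.27, 10.46 and 10.16, and in KO-KO 10.09, 10.08, 10.10, 10.15 and 10.26. All 10 Lin28a-null libraries lay above all 8 Lin28a-intact ones. By mean the order was WT-KO (10.28 ± 0.120 SD), KO-KO (10.14 ± 0.0750), WT-WT (9.61 ± 0.00884) and KO-WT (9.49 ± 0.149); WT-KO overlapped KO-KO, WT-WT overlapped KO-WT, and KO-KO and WT-WT were apart.

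Igf2bp2 rose by 0.68 ± 0.0723 (SE) after Lin28a loss with Trim71 intact (limma adjusted p 2.27e-06) and by 0.65 ± 0.0723 without Trim71 (limma adjusted p 3.51e-06). These are 1.60 times (95% interval 1.44 to 1.78) and 1.57 times (1.41 to 1.74). It was higher in 4 of 4 same-day pairs under each contrast, by 0.45 to 0.87. With Trim71 intact 99.2% of tested genes had a difference no higher than that of Igf2bp2.

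Igf2bp3 had log2 values of 7.81, 7.91, 7.87 and 7.80 in WT-WT and of 7.77, 7.70, 7.42 and 7.74 in KO-WT. In WT-KO it had 8.35, 8.19, 8.33, 8.49 and 8.28, and in KO-KO 8.27, 8.28, 8.15, 8.31 and 8.27. Here too all 10 Lin28a-null libraries lay above all 8 Lin28a-intact ones, and every KO-WT library lay below every WT-WT library. By mean the order was WT-KO (8.33 ± 0.109 SD), KO-KO (8.26 ± 0.0604), WT-WT (7.85 ± 0.0491) and KO-WT (7.66 ± 0.161), of which WT-KO and KO-KO overlapped.

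Igf2bp3 rose by 0.48 ± 0.0758 (SE) with Trim71 intact (limma adjusted p 0.000107) and by 0.60 ± 0.0758 without Trim71 (limma adjusted p 1.27e-05), which is 39.6% and 51.3% more. It was higher in 4 of 4 same-day pairs under each contrast, by 0.42 to 0.89. Exons of Igf2bp3 overlap Malsu1, a gene of the opposite strand, by 1529 bases, and reads there cannot be assigned to either gene. Malsu1 was at 7.79 to 8.37, a level like that of Igf2bp3 (7.42 to 8.49 over the 18 libraries). The value of Igf2bp3 is uncertain to that extent. For Malsu1 the Lin28a contrasts gave 0.06 (adjusted p 0.533) in the presence and 0.18 (adjusted p 0.0677) in the absence of Trim71.

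Igf2bp2 was the gene most like Igf2bp3 among the 10822 candidates (r 0.976 over 18 libraries), ahead of Vwa8 (0.971) and Tbc1d1 (0.967). Within the Lin28a-intact libraries, where that split plays no part, r between Igf2bp2 and Igf2bp3 was 0.918 (n = 8), and within the Lin28a-null libraries it was 0.785 (n = 10). Each value rests in part on 1 library: without KO-WT replicate 3 the former was 0.528 (n = 7), and without WT-KO replicate 4 the latter was 0.513 (n = 9). They are descriptions over libraries that share days and clones. Genes with a pattern like that of Igf2bp2 included Ralgps2 (0.986) and Reps1 (0.980).

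Igf2bp1 carries more seed matches than Igf2bp2 and Igf2bp3 and stood next to Hmga1 in level per kilobase. Its log2 values were 12.03, 12.16, 12.04 and 12.15 in WT-WT and 11.97, 12.03, 12.17 and 12.06 in KO-WT. In WT-KO they were 12.11, 12.28, 12.04, 12.08 and 12.13, and in KO-KO 12.30, 12.15, 12.27, 12.21 and 12.14. All 4 genotypes overlapped, and the means ran from 12.06 ± 0.0842 (SD) in KO-WT through 12.10 ± 0.0717 in WT-WT and 12.13 ± 0.0908 in WT-KO to 12.21 ± 0.0681 in KO-KO. Lin28a loss with Trim71 intact gave 0.03 ± 0.0589 (SE, limma adjusted p 0.684), with a 95% interval of -0.0923 to 0.157, higher in 2 of 4 same-day pairs. Without Trim71 Igf2bp1 rose by 0.16 ± 0.0589 (limma adjusted p 0.0393, 4 of 4 pairs), a call that did not survive 5 of 12 alternatives or the removal of any 1 of 9 libraries, with an adjusted p of up to 0.484 and 0.166. After removal of the GC and length trend that difference was 0.05. A stretch of 43 bases overlaps Gm29202, at 4.20 to 5.16, which fell by 0.56 in that contrast (adjusted p 0.00195). The 9 libraries are WT-WT replicate 1, KO-WT replicates 1, 2 and 4, WT-KO replicates 1 and 5, and KO-KO replicates 1, 3 and 4.

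Lin28b, the paralogue of the deleted gene, had wide and overlapping groups. Its log2 values were 7.72, 7.92, 8.03 and 7.80 in WT-WT and 7.60, 7.79, 7.52 and 7.92 in KO-WT. In WT-KO they were 8.02, 8.13, 7.82, 8.18 and 7.97, and in KO-KO 8.14, 7.98, 8.05, 7.85 and 7.88. Every pair of genotypes overlapped, and the means were 8.03 ± 0.143 (SD) in WT-KO, 7.98 ± 0.118 in KO-KO, 7.87 ± 0.136 in WT-WT and 7.71 ± 0.183 in KO-WT, in that order.

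With Trim71 intact, Lin28a loss gave Lin28b a difference of 0.16 ± 0.100 (SE, limma adjusted p 0.209, 95% interval -0.0515 to 0.373, higher in 3 of 4 same-day pairs). Without Trim71 Lin28b rose by 0.27 ± 0.100 (limma adjusted p 0.0383, 3 of 4 pairs). The call did not hold in either clone set by itself, at 0.32 for E3 and C1 (adjusted p 0.0578) and 0.05 for 1 and 1-4 (adjusted p 0.794), nor on days 3, 4 and 5 (0.18, adjusted p 0.282). It was also lost without KO-WT replicate 1 or 3, WT-KO replicate 1, or KO-KO replicate 1, 2 or 3, at an adjusted p of up to 0.167. Removal of the GC and length trend made the difference with Trim71 intact 0.27 (adjusted p 0.00206), a call that the fit on the deposited values did not make. The genes most like Lin28b were Cstf2 (r 0.979), Cbx5 (0.944) and Bicd1 (0.940), those most like Hmga1 were Tcf3 (0.960), Psme3 (0.959) and Smarcd1 (0.956), and those most like Igf2bp1 were AC160637.1 (0.907), Gatad2b (0.887) and Mllt6 (0.887).

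Lin28a loss with Trim71 intact thus called 4 of the 6 members, 3 higher (Hmga1, Igf2bp2 and Igf2bp3) and 1 lower (Hmga2), where 42.4% of all tested genes were called, 20.3% higher and 22% lower. Without Trim71 it called 5 of 6, 4 higher (Igf2bp1, Igf2bp2, Igf2bp3 and Lin28b) and Hmga2 lower, against 42.8% of all genes (20.8% higher, 22% lower). With the GC and length trend removed, the genes called with Trim71 intact turned from 3049 higher and 3302 lower to 3920 and 2846, and those without Trim71 from 3120 and 3292 to 3750 and 2919. A call alone therefore sets no member apart, and the counts are not read as a result about the members as a set. The median difference of the 6 was 0.23 with Trim71 intact and 0.21 without, against -0.01 and -0.00082 over all tested genes.

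**Figure D3:**
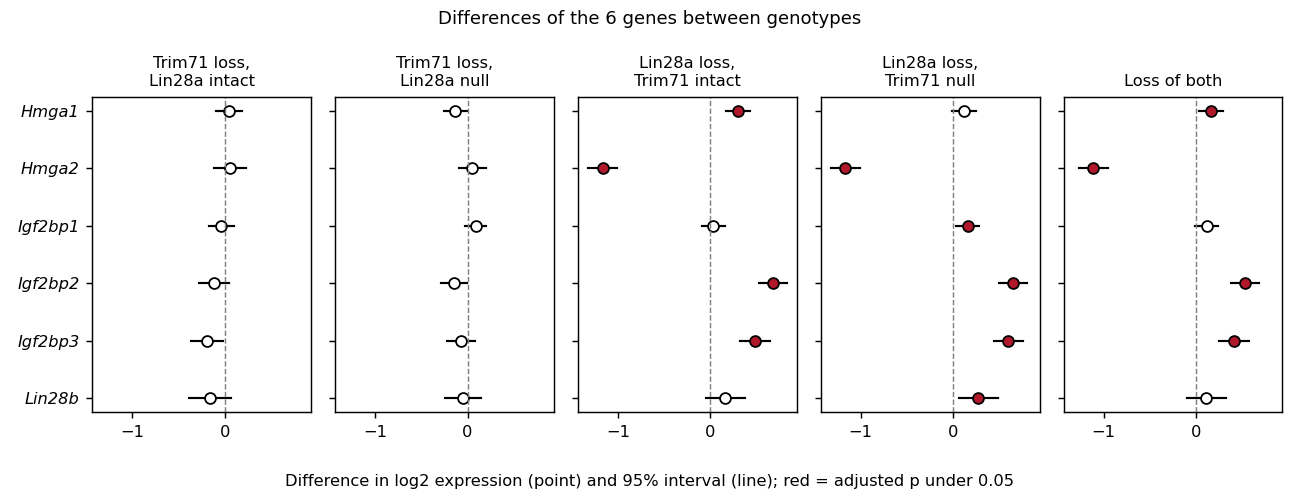
Difference in log2 expression of each of the 6 genes (point) with its 95% interval (line) in the 5 contrasts between genotypes; red points have an adjusted p under 0.05. Hmga2 lies near -1.16 in both Lin28a contrasts, Igf2bp2 and Igf2bp3 lie between 0.48 and 0.68, and no point is red in the Trim71 contrasts.

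**Figure D4:**
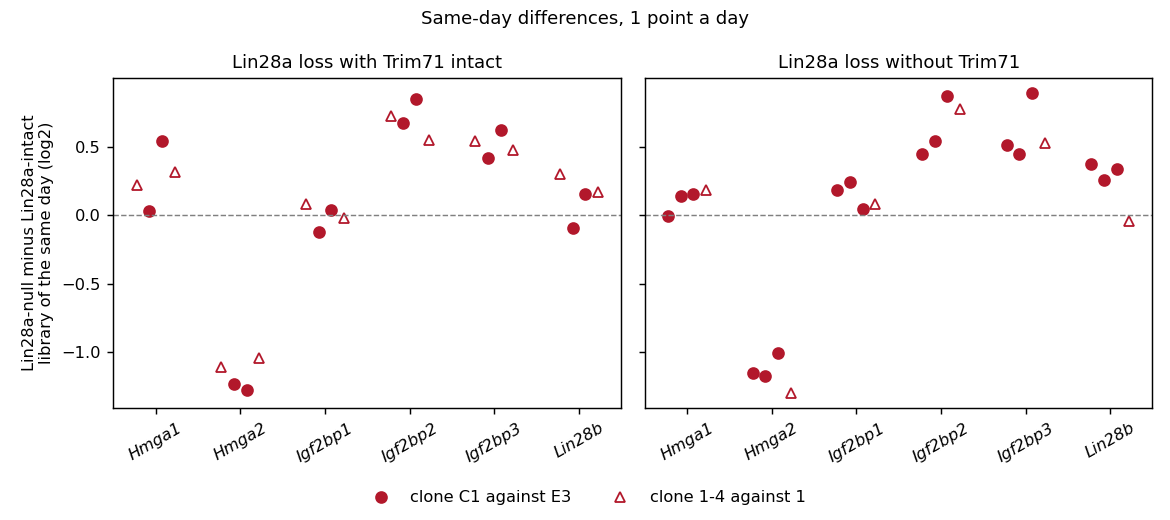
Difference between the Lin28a-null and the Lin28a-intact library of the same day (log2), 1 point a day, for the 6 genes; circles compare clone C1 with E3 and triangles clone 1-4 with 1. Every point of Hmga2 lies below 0 and every point of Igf2bp2 and Igf2bp3 above it, in both sets of clones.

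The fall of Hmga2 and the rises of Igf2bp2 and Igf2bp3 were called in each clone set under both Lin28a contrasts. In clones E3 and C1 alone Hmga2 changed by -1.26 with Trim71 intact, Igf2bp2 by 0.70 and Igf2bp3 by 0.45, and in clones 1 and 1-4 alone by -1.08, 0.64 and 0.51. A test of the difference between the clone sets, made after these values had been seen, called no member in any of the 5 contrasts (limma adjusted p at least 0.873). With 7 residual degrees of freedom it does not show that the clone sets act alike.

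Trim71 loss with Lin28a intact called 0 of the 6 members, where 11.2% of all tested genes were called (4.74% higher, 6.43% lower). The differences ran from -0.19 ± 0.0819 (SE) for Igf2bp3 (limma adjusted p 0.140) to 0.06 ± 0.0801 for Hmga2 (adjusted p 0.668). Igf2bp3 had non-overlapping groups here and was lower in 3 of 3 same-day pairs, as was Igf2bp2 (-0.12, adjusted p 0.340). KO-WT replicate 3 had the lowest value of both genes, and without it the differences were -0.07 for Igf2bp3 (adjusted p 0.543) and -0.02 for Igf2bp2 (adjusted p 0.912). A fit without the day term, which counts degrees of freedom already spent on the removal of the day differences, calls Igf2bp3 (adjusted p 0.0442).

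Trim71 loss without Lin28a also called 0 of 6, where 8.38% of all genes were called (4.26% higher, 4.12% lower). The differences ran from -0.15 ± 0.0669 (SE) for Igf2bp2 (limma adjusted p 0.206, lower in 4 of 5 same-day pairs) to 0.09 ± 0.0545 for Igf2bp1 (adjusted p 0.368). The 95% intervals rest on the spread between these libraries, so they do not exclude a larger change. For Hmga2 they were -0.111 to 0.228 with Lin28a intact and -0.0931 to 0.197 without it. For Lin28b, the least precise member, they were -0.386 to 0.0723 and -0.243 to 0.150. With Lin28a intact, alternative fits reached 0.337 for Hmga2 and 0.199 for Lin28b, above these intervals. The interaction of the Trim71 and Lin28a effects called 0 of 6 (limma adjusted p at least 0.338), where 0.02% of all genes, or 3, were called and 2256 had an unadjusted p under 0.05.

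The cells that lost both genes (KO-KO against WT-WT) are compared with the same WT-WT libraries as the cells that lost Lin28a alone. Of the 6 members 4 were called, 3 higher and 1 lower, against 45.6% of all genes (21% higher, 24.6% lower). Hmga2 fell by 1.11 (limma adjusted p 1.09e-08), Igf2bp2 rose by 0.53 (adjusted p 2.5e-05), Igf2bp3 by 0.41 (adjusted p 0.000423) and Hmga1 by 0.17 (adjusted p 0.0371). With clones E3 and C1 only, Igf2bp3 was not called (adjusted p 0.0700). The Hmga1 call was lost there (adjusted p 0.258), without the variance trend (adjusted p 0.0601) and without any of WT-WT replicates 3 and 4 and KO-KO replicates 1, 3, 4 and 5, at up to 0.203. Without WT-WT replicate 3 the Hmga1 difference was 0.0878, against 0.17 with it. Igf2bp1 differed by 0.12 (adjusted p 0.110), and it was called without WT-KO replicate 2 (0.14, adjusted p 0.0306) and without the day term (adjusted p 0.0488). Lin28b differed by 0.11 (adjusted p 0.372), and by 0.23 with the GC and length trend removed, which was called (adjusted p 0.00663).

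The number of seed matches and the direction of change were set side by side. After Lin28a loss with Trim71 intact, Hmga2 with 7 matches fell, while Igf2bp2 with 2 and Igf2bp3 and Hmga1 with 1 each rose. Igf2bp1 and Lin28b with 5 each differed by 0.03 and 0.16 there, and by 0.16 and 0.27 without Trim71. Hmga1 differed by 0.30 and, without Trim71, by 0.11, which was not called. Over all tested genes with an annotated UTR, the median difference with Trim71 intact was -0.01 for 10510 genes with no match. It was -0.0073 for 1586 genes with 1 match and -0.02 for 363 genes with 2 or more. The shares called lower were 23.3%, 23.5% and 23.1%, and those called higher 20.8%, 22.0% and 20.4%. Without Trim71 the medians were -0.0078, 0.03 and 0.04, the shares called lower were 23.2%, 20.0% and 19.8%, and those called higher 20.4%, 25.5% and 26.7%.

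The genes around the members were taken from lists drawn up from general knowledge of let-7, the HMG proteins and the IGF2BP proteins, which hold none of the 6. Over all tested genes, Lin28a loss called 20.3% higher and 22% lower with Trim71 intact, and 20.8% and 22% without Trim71. Trim71 loss called 4.74% higher and 6.43% lower with Lin28a intact, and 4.26% and 4.12% without it. Counts from the lists are to be read against these shares. Of 49 tested other let-7 targets, 8 were called higher and 19 lower after Lin28a loss with Trim71 intact, and 11 and 17 without Trim71, with medians of -0.05 and -0.02. Lin28a and Trim71 are on this list too, so the deletion fixes 1 lower call in each contrast that removes one of them. The deepest falls with Trim71 intact were those of Thbs1, an angiogenesis inhibitor (-2.76), Peg10, an imprinted retrotransposon-derived gene (-2.66), Lin28a itself (-1.65) and the cyclin Ccnd2 (-1.03). Without Trim71 they were those of Peg10 (-2.72), Thbs1 (-2.11), Lin28a (-1.56) and the phosphatase Dusp1 (-0.94). Under Trim71 loss 4 were higher and 8 lower with Lin28a intact, and 5 and 5 without it; apart from Trim71 itself, Prtg, a cell surface protein of the early embryo, differed most with Lin28a intact (-0.63, limma adjusted p 0.00307).

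Of 22 tested genes of let-7 processing and silencing, 9 were called higher and 2 lower after Lin28a loss with Trim71 intact, and 10 and 1 without Trim71, with medians of 0.09 and 0.16. The list holds the targeted genes, so Lin28a itself is 1 of the lower calls in each of these contrasts and the lone one without Trim71. Msi1, an RNA-binding protein, rose by 0.53 (limma adjusted p 3.66e-05) and by 0.38 (adjusted p 0.000737), and Trim71 by 0.45 (adjusted p 0.00431) and 0.38 (adjusted p 0.0111). The uridylyl transferase Zcchc6 fell by 0.34 with Trim71 intact (adjusted p 0.00197), and the silencing factor Tnrc6b rose by 0.44 without Trim71 (adjusted p 0.000579). Trim71 loss called 1 higher and 4 lower with Lin28a intact, and 0 and 2 without it. Trim71 itself was among the lower calls in each. The Lin28a transcript was another of those 4, with a change of -0.28 (adjusted p 0.0360). Its groups overlapped there, and it was lower in 2 of 3 same-day pairs. In the Lin28a-null cells its change of -0.19 was not called (adjusted p 0.0971). Also among the lower calls, Dicer1, which cuts precursors into mature miRNAs, fell by 0.37 (adjusted p 0.00282) and 0.22 (adjusted p 0.0217).

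Of 11 tested other HMG genes, 0 were called higher and 3 lower with Trim71 intact, and 1 and 5 without. Hmgn5, a nucleosome-binding protein, fell by 0.57 (limma adjusted p 0.000314) and by 0.28 (adjusted p 0.0321), and Hmgxb4 fell by 0.48 (adjusted p 6.56e-05) and 0.57 (adjusted p 1.13e-05). Under Trim71 loss 1 HMG gene was higher and 1 lower in each Lin28a state: Hmgn2 rose by 0.30 (adjusted p 0.0120) and 0.21 (adjusted p 0.0328), and Hmgn5 fell by 0.83 (adjusted p 0.000448) and 0.54 (adjusted p 0.00205).

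Of 12 RNAs known to be bound by IGF2BP proteins, 3 were called higher and 6 lower in each Lin28a contrast, with medians of -0.29 and -0.34. H19, an imprinted non-coding RNA, was at 10.49 to 11.52 in the Lin28a-intact and 5.22 to 6.43 in the Lin28a-null libraries, a change of -5.11 ± 0.140 (SE, limma adjusted p 7.28e-13) with Trim71 intact. Igf2, the mRNA that gave the family its name, was at 4.96 to 5.32 against 3.12 to 3.69, a change of -1.83 ± 0.112 (limma adjusted p 4.27e-09). Ptgs2 (-1.25) and Cd44 (-0.997) were also among the lower calls, but passed the filter only through the Lin28a-intact libraries. Ptgs2 was at 3.45 to 3.81 there and at 2.30 to 2.80 in the Lin28a-null libraries. Cd44 was at 3.65 to 3.93 against 2.58 to 3.04. These levels are near the filter, so the sizes of both falls are uncertain. Igf2 also lay near the filter in the Lin28a-null libraries, so the size of its fall is uncertain too. In the other direction, Gli1 averaged 7.69 in WT-WT and 8.59 in WT-KO. After loss of both genes it rose by 0.98 (limma adjusted p 2.74e-07). Under Trim71 loss H19 fell by 0.54 (adjusted p 0.0349) and 0.45 (adjusted p 0.0424), and Btrc by 0.22 (adjusted p 0.0137) and 0.21 (adjusted p 0.00525), while 0 were called higher.

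Of 9 tested genes known as partners or targets of HMGA proteins, 1 was called higher and 5 lower with Trim71 intact, and 0 and 5 without Trim71, with medians of -0.25 and -0.35. Cdkn2a, a cell cycle inhibitor whose locus HMGA2 is known to restrain in stem cells, fell by 0.97 (limma adjusted p 6.15e-08) and 1.14 (adjusted p 1.01e-08). Its neighbour Cdkn2b fell by 0.79 (adjusted p 1.43e-06) and 0.83 (adjusted p 8.17e-07). Snai1, a driver of epithelial-mesenchymal transition, was lower by 0.88 (adjusted p 9.13e-06) and 0.70 (adjusted p 7.68e-05). Snai1 passed the filter only through the Lin28a-intact libraries, at 3.53 to 3.76 against 2.64 to 3.19 in the Lin28a-null ones. The size of its fall is therefore uncertain. Under Trim71 loss Cdkn2a was the list's 1 called gene, higher by 0.32 with Lin28a intact (adjusted p 0.0233).

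**Figure D5:**
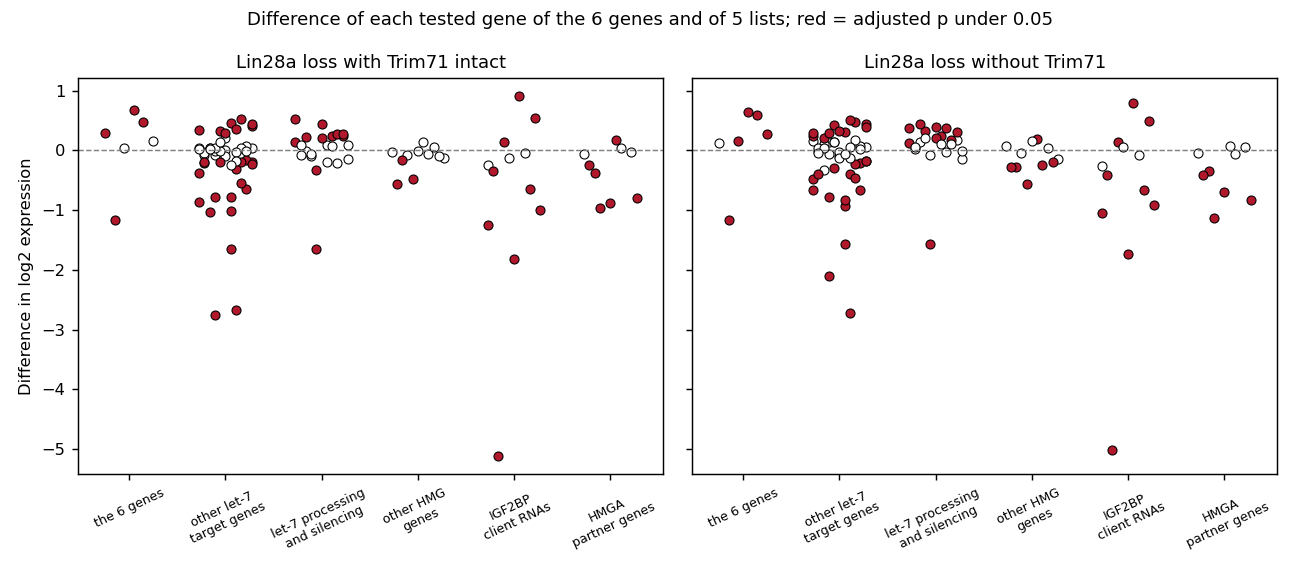
Difference in log2 expression after Lin28a loss of each tested gene among the 6 genes and 5 surrounding lists, with Trim71 intact (left) and without Trim71 (right); red points have an adjusted p under 0.05. The lowest point is H19 at -5.11 and -5.02, and the 6 genes span from -1.16 to 0.68 on the left.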

How the data were processed

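Messenger RNA was sequenced from mouse embryonic stem cells as paired-end libraries from a kit that does not mark the strand, per the labels' protocols. The submitters' processing notes name CASAVA 1.8, STAR and DESeq2, while their roles, the counting and the genome build are not given in the sources used here. The authors deposited 1 table of normalised values for 21685 genes and 19 libraries, from -0.712 to 16.30, with 4126 values below 0. They were read as log2 values, a base inferred from the library sums of the linear values, 7297919 to 7677445. Depth is unknown, so no counting error is given.

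No day term of any gene exceeded 1.7e-08, so a day effect had been removed from the deposited values. Genotypes were compared with limma 3.58.1 in R 4.3.3, with genotype and labelled day as terms, a variance trend, 18 libraries and 10 residual degrees of freedom. Days are the replicate block, since the labels tie libraries to a day. On simulated data for Trim71 loss with Lin28a intact (14988 genes, 200 changed by 1 log2 unit), 98% were recovered and 3.88% of calls were false, against 99.5% and 34.3% without the day term. Smaller changes, such as those of the members in that contrast, were not simulated, so their recovery is unknown. KO-WT replicate 5 was left out as a copy of a mean. Genes needed a linear value of at least 10 in at least 4 libraries, which 69.1% met. P-values were adjusted by Benjamini-Hochberg over all tested genes in each of 6 contrasts, and intervals cover 95%.

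The text names the 6 members, the targeted genes, the 3 genes most correlated with each member among those with a mean of at least 50 on the linear scale, and up to 4 called genes a list and contrast by size of difference; 1 gene that this rule names is not reported here. The members and lists were chosen with earlier results of these data known. The overlapping genes and Hmga1b were added after the annotation was read, and the clone-set test and the correlations without 1 library after values were seen. Seed matches came from GENCODE M21 on GRCm38, which may not be the build the authors used.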

Additional observations from a re-analysis of the deposited data

Results flagged for a closer look

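Igf2bp3 in KO-KO replicate 3 stood at 8.15 on the log2 scale, apart from the other 4 KO-KO libraries, of which the nearest was at 8.27. It was picked out because its gap to the next library was large against the range of its group by Dixon's test. It was the 1 case in 32 groups of libraries examined, and chance alone picks out about 1 group in 20. Even this library lay above all 8 Lin28a-intact libraries, whose highest value was 7.91.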

How the results depend on the processing

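Depth is not known, each Lin28a state rests on its own 2 clones, and p-values measure the spread between libraries from them. Hmga2, Igf2bp2 and Igf2bp3 kept their direction and call in both Lin28a contrasts under all 12 alternatives and without any 1 of the 18 libraries. Over all results and settings, 1001 of 1074 values kept direction and call, 33 lost and 9 gained a call, and 31 turned direction, none of them called. The causes were not tested.

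The pairing by day was removed in the fits with no replicate block: Trim71 loss with Lin28a intact then called 1 member, with 18 and with all 19 libraries. Lin28a loss without Trim71 called 3 members in clones E3 and C1, in clones 1 and 1-4 and on days 3, 4 and 5, and 3 to 5 when 1 library was left out. Loss of both called 2 in clones E3 and C1. Removing the GC and length trend turned the split of all genes called after loss of both from 3143 higher and 3691 lower to 3937 and 2952, and after Trim71 loss with Lin28a intact from 711 and 963 to 584 and 533. The number of all genes called after Trim71 loss with Lin28a intact ran from 10 in clones E3 and C1 to 5162 with 19 libraries and no day term, against 1674.

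For Trim71 loss with Lin28a intact, Hmga2 was -0.0905 in clones E3 and C1. In clones 1 and 1-4, Hmga1 was -0.00777 and Lin28b 0.199. With the GC trend removed, Hmga1 was -0.0635, Lin28b 0.0406 and Igf2bp1 0.0289. For Trim71 loss without Lin28a, Lin28b was 0.0147 in clones 1 and 1-4. For Lin28a loss with Trim71 intact, Igf2bp1 was -0.0334 on days 3, 4 and 5 and -0.00503 with only the compared groups. For loss of both, Lin28b was -0.0249 in clones E3 and C1. The interaction of Hmga2 was 0.147 in clones E3 and C1 and 0.0247 on days 3, 4 and 5, that of Igf2bp2 0.0525 in clones 1 and 1-4 and 0.0390 on those days, and that of Lin28b -0.185 in clones 1 and 1-4 and -0.0829 with the GC trend removed.

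With 1 library left out, Trim71 loss with Lin28a intact gave -0.0332 to 0.118 for Hmga1 and -0.0239 to 0.137 for Hmga2, and without Lin28a it gave -0.116 to 0.00713 for Lin28b. Lin28a loss with Trim71 intact gave -0.00503 to 0.0642 for Igf2bp1. The interaction ran from -0.0844 to 0.0760 for Hmga2, from -0.130 to 0.0323 for Igf2bp2 and from -0.000813 to 0.171 for Igf2bp3.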
